A study of Homo sapiens with 18 samples.

Results

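V16D is a prostate cancer line, derived from LNCaP, that grows under castrate levels of androgen. Chromatin immunoprecipitation sequencing was used to map H3K4me3, the trimethylation of histone H3 at lysine 4, in these cells. Cells transduced with a lentivector that overexpresses H19, a long non-coding RNA, (V16D/H19) were compared with cells transduced with the control lentivector (V16D/CTL). Both groups descend from the same line, and each has 3 H3K4me3 libraries that the study's methods call biological triplicates. Each replicate has an input, which the study used for both H3K4me3 and H3K27me3. The comparison asks which promoters, and which kinds of genes, gain or lose H3K4me3 when H19 is raised. These are 6 of the 18 libraries of the series, and the 6 H3K27me3 peak lists of the same cells were used only to describe the promoters. The H3K4me3 peaks of the 6 lists merged into 25373 sites, of which 20708 were called in 2 or more libraries and 15811 in all 6. The 15811 sites were tested, and 11728 of them lay within 1 kb of the start of a protein-coding gene (promoter sites), which gave 12474 genes.

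H3K4me3 is written by the COMPASS family of methyltransferases and sits at the starts of transcribed genes, above all where the DNA is rich in CpG. At many developmental genes it lies beside H3K27me3, the mark of Polycomb repressive complex 2 (PRC2), and such promoters are called bivalent and are mostly silent. H19 is an imprinted RNA that lies next to the growth factor gene IGF2, and prostate cancer cells can lose luminal identity and take on neuroendocrine features under androgen deprivation.

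The promoters that carry the main results are shown first. Each is the stretch from 250 bases before to 50 bases after the start, 5′ to 3′ on the gene's strand, from RefSeq on GRCh38.p14. Capitals mark matches, on either strand, to the GC box GGGCGG, to the CCAAT box, to the TATA box TATAAA and to the cell cycle homology region TTTGAA, and overlapping matches run together. PLK1 (chr16:23678639-23678938, plus strand) and CCNB2 (chr15:59104896-59105195, plus strand) are examples of mitotic promoters that lost H3K4me3. RND3 (chr2:150487618-150487917, minus strand) had the largest fall of all promoter sites tested, and KLK2 (chr19:50873189-50873488, plus strand) is a luminal gene. BEGAIN (chr14:100568444-100568743, minus strand) and GPR12 (chr13:26760737-26761036, minus strand) stand for promoters that gained H3K4me3 where H3K27me3 was also found.
PLK1: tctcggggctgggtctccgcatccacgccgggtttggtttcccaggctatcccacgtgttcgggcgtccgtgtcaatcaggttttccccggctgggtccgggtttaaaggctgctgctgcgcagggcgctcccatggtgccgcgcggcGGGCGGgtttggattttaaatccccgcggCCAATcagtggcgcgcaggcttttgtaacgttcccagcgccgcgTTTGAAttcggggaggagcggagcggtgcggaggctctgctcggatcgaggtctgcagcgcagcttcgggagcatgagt
CCNB2: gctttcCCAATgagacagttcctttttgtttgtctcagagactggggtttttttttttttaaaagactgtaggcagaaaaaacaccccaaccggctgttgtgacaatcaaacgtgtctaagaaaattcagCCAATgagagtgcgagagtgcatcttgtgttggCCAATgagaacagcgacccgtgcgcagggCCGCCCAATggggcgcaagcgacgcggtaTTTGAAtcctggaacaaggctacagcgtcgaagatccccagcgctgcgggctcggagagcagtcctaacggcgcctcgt
RND3: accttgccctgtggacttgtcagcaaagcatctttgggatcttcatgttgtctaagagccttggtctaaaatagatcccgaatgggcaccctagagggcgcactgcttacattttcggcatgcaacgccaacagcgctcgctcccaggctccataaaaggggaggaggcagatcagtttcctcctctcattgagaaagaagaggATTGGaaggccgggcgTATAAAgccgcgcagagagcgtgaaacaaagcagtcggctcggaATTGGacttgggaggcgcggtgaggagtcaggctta
KLK2: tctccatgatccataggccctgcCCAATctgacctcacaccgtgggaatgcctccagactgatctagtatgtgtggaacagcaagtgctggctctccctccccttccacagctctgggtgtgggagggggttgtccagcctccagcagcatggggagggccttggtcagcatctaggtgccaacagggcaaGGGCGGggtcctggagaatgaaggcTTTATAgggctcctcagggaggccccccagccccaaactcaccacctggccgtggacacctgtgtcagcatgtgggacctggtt
BEGAIN: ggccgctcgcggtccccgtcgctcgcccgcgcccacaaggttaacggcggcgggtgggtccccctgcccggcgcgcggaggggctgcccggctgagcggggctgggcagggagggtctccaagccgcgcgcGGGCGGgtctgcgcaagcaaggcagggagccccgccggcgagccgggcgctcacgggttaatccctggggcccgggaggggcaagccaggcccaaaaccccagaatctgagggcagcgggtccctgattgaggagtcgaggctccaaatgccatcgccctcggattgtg
GPR12: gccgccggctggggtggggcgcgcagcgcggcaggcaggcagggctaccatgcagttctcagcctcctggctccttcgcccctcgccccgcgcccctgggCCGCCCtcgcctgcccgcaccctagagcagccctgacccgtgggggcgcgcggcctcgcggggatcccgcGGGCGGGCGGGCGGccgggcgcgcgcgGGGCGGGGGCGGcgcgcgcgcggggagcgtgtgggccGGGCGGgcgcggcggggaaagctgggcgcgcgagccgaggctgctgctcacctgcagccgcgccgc

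In PLK1 and in CCNB2 the TTTGAA begins 29 bases before the start. CCNB2 holds 4 CCAAT boxes on the plus strand, and PLK1 holds 1. RND3 has a TATAAA that begins 30 bases before the start and 15 CpG dinucleotides in 300 bases, KLK2 has 3 CpGs, and BEGAIN and GPR12 have 34 and 49. The window of GPR12 is 83.3% G or C and holds 7 GC boxes, of which neighbours overlap. Over all 22183 protein-coding starts in the sequence table, GGGCGG was found in 56.3% of windows of this length, CCAAT in 34.7%, TATAAA in 9.47% and TTTGAA in 12.4%. A match is a description of the letters and not a bound site.

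The level of a site in a library was its pileup, the number of immunoprecipitated fragments stacked over the summit of the strongest peak. It was recovered from the deposited fold over input and p-value of that peak and scaled to a common median. Median pileup over a list's peaks was 73 to 89 reads in V16D/CTL against 65.5 to 76 reads in V16D/H19, and the lists held 20048 to 21934 peaks. Across sites, log2 pileup correlated at 0.978 to 0.983 between libraries of a group and at 0.968 to 0.971 between groups; sites are not independent replicates. Of 10 luminal markers 9 had a promoter peak in all 6 libraries, with summed pileups of 1070 to 1127 reads, and KRT8 had none. None of 6 leukocyte markers had a peak in any library. Of 6 fibroblast and endothelium markers COL1A1 had a peak in all 6, and the other 5 had none. Of 6 basal markers DST and ITGA6 had a peak in all 6. Of 6 neuroendocrine markers SYP and ENO2 had a peak in all 6 libraries, and 5 had one in at least 2. CHGA, the defining neuroendocrine granin, had none. The starts of H19 and IGF2 had no H3K4me3 peak in any library. H19 was overexpressed from a lentivector, so the mark at the gene's own start could not check the overexpression.

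Pileup was higher in V16D/H19 at 210 sites (1.33% of 15811) and lower at 336 sites (2.13%) by limma with Benjamini-Hochberg adjustment at 0.05, and 2528 sites had an unadjusted p under 0.05. By genes with a promoter site tested, 161 were higher (1.29% of 12474) and 207 lower (1.66%). Pileup was added after the data were seen, and the planned readout, fold over input, called 0 sites in either direction. In bulk cells, fewer cells with the mark and less mark per cell cannot be told apart. The sites that rose were low in V16D/CTL, with a median of 28.9 reads against 49.7 in V16D/H19. The sites that fell had a median of 78.0 reads in V16D/CTL against 55.2 in V16D/H19. These medians lie above those of the rises but below those of all sites tested, 110 and 109 reads. Of the 3953 sites with the lowest pileup (8.47 to 47.5 reads), 122 rose and 120 fell. Among the next 3953 sites (47.5 to 109 reads), 57 rose and 128 fell. Sites were called on the difference, so the lower V16D/CTL level of the rises follows in part from the call. The groups did not overlap at 96.2% of the rises and 98.8% of the falls, against 19.8% of all sites tested, so separate groups at a called gene describe the call and add nothing to it. A change above 2-fold was found at 27 of the 210 and 19 of the 336. The rises held 156 promoter sites (74.3%) and the falls 193 (57.4%), against 74.2% of all sites tested. These counts moved with single libraries: 81 to 107 sites were higher without V16D/CTL replicate 1 or 2 or V16D/H19 replicate 1 or 2, and 140 to 197 were lower without any V16D/CTL replicate or V16D/H19 replicate 1. Of the calls 38.5% were rises, and 51.6% and 51.7% after quantile and loess normalization.

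**Figure D1:**
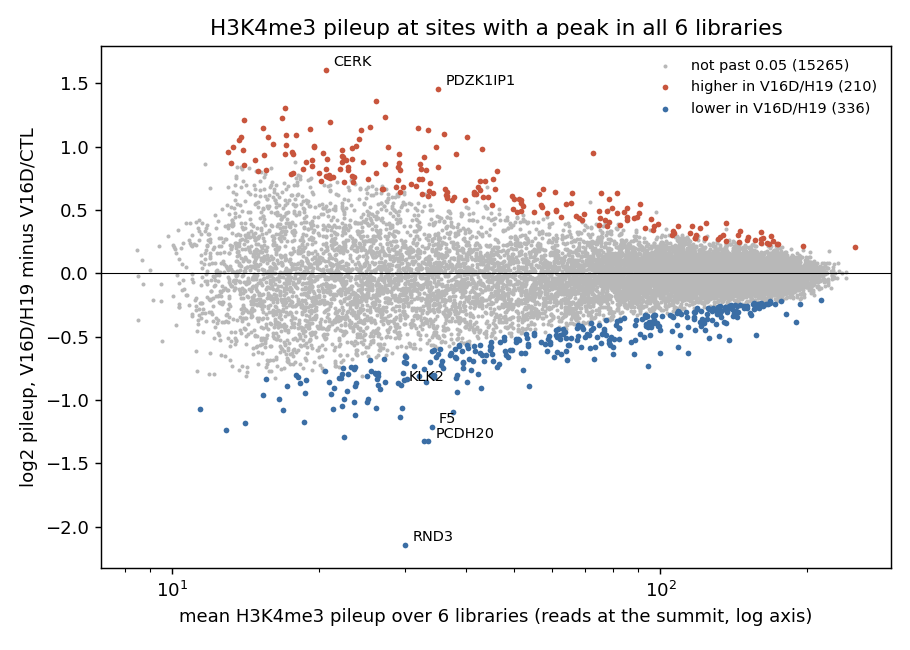
Each point is one of the 15811 sites. The x axis is the mean pileup over the 6 libraries in reads (log axis) and the y axis the difference in log2 pileup, V16D/H19 minus V16D/CTL. Red points are the 210 sites called higher and blue points the 336 called lower; the rises lie mostly at low pileup, and RND3 is the lowest point at -2.14.

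At the 10 promoters with the largest rises pileup was low in V16D/CTL. CERK, the kinase that phosphorylates ceramide, had 5.86, 13 and 13 reads in V16D/CTL against 26.6, 37.4 and 28.1 in V16D/H19. The groups stood well apart and the difference was 1.61 on the log2 scale (SE 0.255, adjusted p = 7.38e-05, limma). PDZK1IP1, a small membrane protein of epithelia, had 17.6, 18.5 and 19.5 reads against 56.2, 39.3 and 59.4, a difference of 1.46 (SE 0.189, adjusted p = 1.51e-06, limma). CSMD2, a transmembrane protein of synapses, had 8.79, 12 and 8.66 reads against 20.4, 24.9 and 27.1 (log2 difference 1.30, adjusted p = 7.20e-04, limma). In all 3 genes the lowest V16D/H19 library exceeded the highest V16D/CTL library. NEURL1, a ubiquitin ligase that acts on Notch ligands, had 7.81, 12 and 9.74 reads against 24.5, 30.7 and 15.6 (1.23). GPR12, an orphan receptor of the brain, had 10.7, 13 and 14.1 against 34.7, 32.6 and 20.8 (1.20). XYLT1, which starts the glycosaminoglycan chains of proteoglycans, had 9.76, 14.8 and 24.9 against 32.7, 33.6 and 36.4 (1.16). V16D/CTL replicate 3 was the highest control at both GPR12 and XYLT1 and still lay below every V16D/H19 library. SPRY4, a feedback inhibitor of receptor tyrosine kinase signalling, had 28.3, 18.5 and 14.1 reads against 51.1, 44.1 and 35.4 (1.14, adjusted p = 5.68e-04, limma). CCDC85A rose by 1.21. Both remaining promoters are alternative starts: BEGAIN, a protein of the postsynaptic density, had 10.7, 9.27 and 8.66 reads against 23.5, 20.1 and 19.8 (1.15), and LIMK2, a kinase of the actin cytoskeleton, rose by 1.14. Their strongest promoter sites had log2 differences of 0.19 and -0.01 and did not pass the test. Local background was higher on the log2 scale in V16D/H19 at CERK (0.61), PDZK1IP1 (0.88), XYLT1 (0.67) and SPRY4 (1.08), and differed by -0.40 to 0.23 at the other 6, and its part in these rises was not tested.

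RND3 lost more H3K4me3 than any other promoter site tested. RND3, which dissolves actin stress fibres, had 51.7, 52.8 and 42.2 reads in V16D/CTL against 10.2, 11.5 and 11.5 in V16D/H19. The difference was -2.14 on the log2 scale, a 4.41-fold lower level (SE 0.205, adjusted p = 2.51e-10, limma). H3K27me3 peaks overlapped the same site in all 6 H3K27me3 libraries. Their folds over input were 4.61, 3.81 and 4.60 in V16D/CTL against 4.24, 4.04 and 4.96 in V16D/H19, ranges that overlap. PCDH20, a protocadherin, had 48.8, 51.0 and 43.3 reads against 16.4, 18.2 and 22.9 (-1.33, adjusted p = 8.76e-06, limma). F5, coagulation factor V, had 54.7, 38.9 and 48.7 against 17.4, 19.2 and 25 (-1.21). GPX8, a peroxidase of the endoplasmic reticulum, had 54.7, 49.1 and 49.8 against 22.5, 26.9 and 22.9 (-1.09). Sites were tested only with a peak in all 6 libraries, so the choice of sites fixed that these promoters have a peak in every V16D/H19 library. KCNJ8, a subunit of ATP-sensitive potassium channels, had 13.7, 18.5 and 14.1 reads against 7.15, 8.63 and 6.25 (-1.07, adjusted p = 0.0179, limma). SNORC, a cartilage proteoglycan, fell by 0.96, and RFX6, a transcription factor of endocrine pancreas, fell by 0.91. The remaining falls were at alternative starts of ZNF519 (-1.18), SLC1A5 (-1.07) and MRPL34 (-0.99), whose strongest sites differed by -0.08, -0.19 and -0.14 and did not pass the test.

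**Figure D2:**
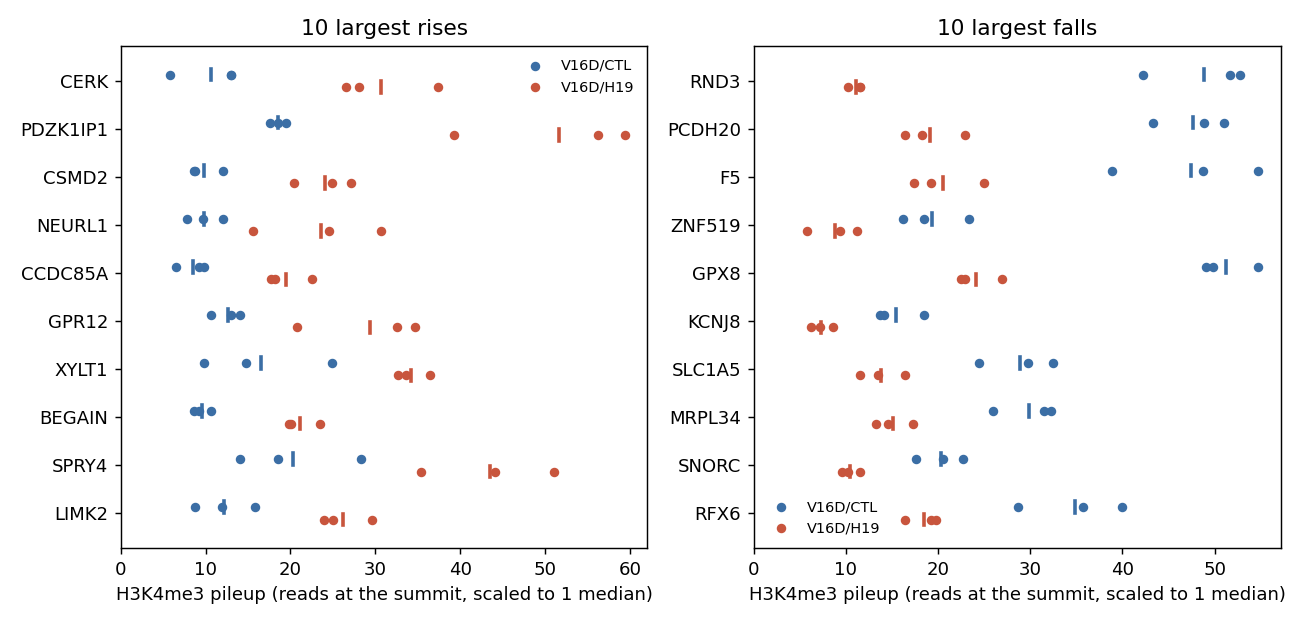
Pileup in reads, scaled to 1 median, at the 10 promoter sites with the largest rises (left) and falls (right). Blue points are the 3 V16D/CTL and red points the 3 V16D/H19 libraries, and ticks are group means; in every row the groups do not overlap, which the choice of genes required.

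Promoters with H3K27me3 in control cells gained H3K4me3 more often than others. An H3K27me3 peak that overlapped the H3K4me3 site was found in 2 or 3 V16D/CTL libraries at 1044 of the 11728 promoter sites. Of these, 87 rose (8.33%) and 11 fell (1.05%). Of the 10410 promoter sites with no H3K27me3 peak in any V16D/CTL library, 63 rose (0.605%) and 178 fell (1.71%). The median log2 difference was 0.127 in the first class and -0.012 in the second, and 67.8% and 45.2% of the sites had a positive difference. H3K27me3 promoters are low in H3K4me3, so the classes were also compared within bands of level. Below a mean of 40 reads, 10.5% of 534 sites with H3K27me3 and 2.51% of 638 without it rose. Between 40 and 80 reads the shares were 8.08% and 0.971%, and above 80 reads 2.27% and 0.423%. The mark of PRC2 itself was kept in at least 2 V16D/H19 libraries at 795 of the 1044 sites (76.1%) and at 70 of the 87 that rose.

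Of the 10 largest rises, CERK, CSMD2, NEURL1, GPR12, XYLT1 and BEGAIN had H3K27me3 in all 6 H3K27me3 libraries. CCDC85A and SPRY4 had it in at least 2 V16D/CTL libraries, and PDZK1IP1 and LIMK2 had none. At BEGAIN the H3K27me3 fold over input was 5.37, 7.23 and 6.63 in controls and 5.95, 6.66 and 5.88 with H19, and at GPR12 it was 5.73, 5.07 and 5.54 against 4.22, 5.00 and 4.43. The ranges overlap at BEGAIN and do not at GPR12. Across the whole class, the median centred log2 pileup was -1.60, -1.53 and -1.53 in the V16D/CTL libraries and -1.38, -1.34 and -1.54 in the V16D/H19 libraries. V16D/H19 replicate 3 thus lay within the controls, while the other two lay above them. Local background around these summits also differed, with median centred log2 values of -0.60, -0.58 and -0.46 in V16D/CTL against -0.49, -0.29 and -0.08 in V16D/H19 (median difference 0.262). The V16D/CTL inputs behind this background also served to call the H3K27me3 peaks that define the class. The part of background in the result was not tested. The number of rises in the class was 33, 42 and 63 without V16D/CTL replicate 1, 2 or 3 and 34, 33 and 84 without V16D/H19 replicate 1, 2 or 3. It was 37 without centring, 67 when each chromosome was centred on its own, and 126 and 123 after quantile and loess normalization. Under each of these settings the share that rose was higher with H3K27me3 than without it.

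**Figure D3:**
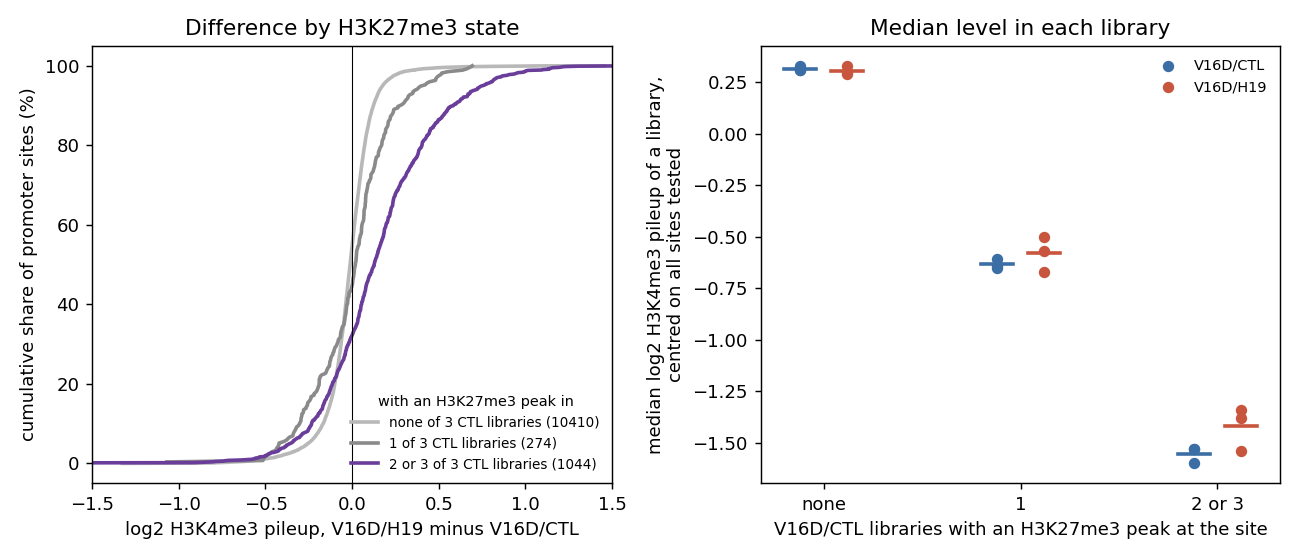
Left, the cumulative share of promoter sites (%) against the log2 pileup difference, V16D/H19 minus V16D/CTL, for 10410 sites without H3K27me3 in V16D/CTL, 274 with it in 1 library and 1044 with it in 2 or 3. Right, the median centred log2 pileup of each library in the same classes, with lines for group means; in the class with 2 or 3 libraries, V16D/H19 replicate 3 at -1.54 lies within the V16D/CTL values.

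Genes were then read by 44 gene lists, and the counts within most lists were small beside 1.29% higher and 1.66% lower over all genes. Of the 5 neuronal function lists with a call in pileup, those of synaptic genes and of sodium and calcium channels had more rises than falls. Those of axon guidance (2 rises and 4 falls), potassium channels (1 and 2) and neuronal regulators (1 and 2) had more falls. Of 32 tested genes for synaptic adhesion and vesicles, 4 rose (12.5%) and none fell. Of these 32, 14 had a promoter site with H3K27me3 in at least 2 V16D/CTL libraries, against 1072 of all 12474 genes. Of all promoter sites with such H3K27me3, 8.33% rose, and its part in the list counts was not tested. RIMS1, a scaffold of the presynaptic active zone, had 25.4, 14.8 and 16.2 reads in controls and 37.8, 38.4 and 33.3 with H19 (log2 difference 0.99, adjusted p = 0.00249, limma). CNTNAP2, a neurexin-like adhesion protein, had 10.7, 16.7 and 11.9 against 27.6, 23 and 27.1 (1.0). SYT9, a calcium sensor of vesicles, had 30.3, 38.0 and 29.2 against 43.9, 55.6 and 52.1 (0.64). In these 3 genes no V16D/H19 library reached down to the controls. DLGAP4, a postsynaptic scaffold, rose at 2 starts by 0.81 and 0.28, and only the first had H3K27me3. RIMS1, CNTNAP2 and SYT9 all carried H3K27me3 in at least 2 V16D/CTL libraries. The number of synaptic genes that rose was 1 to 5 over the alternative settings, and none fell in any.

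Of 41 neural transcription factors 3 rose (7.32%) and none fell, and 24 of the 41 had H3K27me3 in at least 2 V16D/CTL libraries. ETV4 and ETV5, transcription factors induced by FGF and MAP kinase signals, had log2 differences of 0.72 and 0.54, and the homeobox factor DLX5 had 0.72. ETV4 had 19.5, 18.5 and 15.2 reads against 31.7, 28.8 and 27.1, and ETV5 had 43.9, 42.6 and 52.0 against 79.7, 69.1 and 54.2. Their groups do not overlap, although V16D/H19 replicate 3 of ETV5 came close to the controls. None of the 3 passed without V16D/CTL replicate 1 or 2 or V16D/H19 replicate 1 or 2. ETV4 and ETV5 make, with SPRY4, 3 rises among 25 FGF ligands, receptors and feedback genes, in which FGF11 (-0.62) and SPRY1 (-0.53), another Sprouty inhibitor, fell. SPRY1 had 76.2, 100 and 101 reads against 63.4, 79.6 and 51.0, and V16D/CTL replicate 1 lay below the highest V16D/H19 library. Among 20 sodium and calcium channel genes, 13 of them with such H3K27me3, the auxiliary subunits CACNA2D1 (0.79) and CACNB4 (0.83) rose and CACNG4 (-0.72) fell. KCNC1 (0.76) was the one rise among 41 potassium channel genes, and KCNJ8 and KCNMA1 (-0.30) fell.

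BMP2 and GDF15, secreted factors of the TGF-beta family, rose among 44 genes of that pathway, and none fell. BMP2 had 9.76, 16.7 and 13 reads against 21.5, 24.9 and 31.2 (0.99, adjusted p = 0.00799, limma), and GDF15, a stress-induced cytokine, had 63.5, 64.9 and 59.5 against 92.0, 103 and 87.5 (0.58, adjusted p = 0.00118, limma). The groups are apart at both genes; BMP2 carried H3K27me3 in all 3 V16D/CTL libraries and GDF15 in none. At BMP2 local background was 1.22 higher on the log2 scale in V16D/H19, and its part was not tested. In the axon guidance list EPHB1 (0.95) and SEMA4A (0.42) rose, and SEMA3B (-0.39), SEMA4B (-0.24), SEMA6A (-0.48) and SEMA6D, at an alternative start, fell among 57 genes. The 11 neuroendocrine markers with a tested promoter had no call in pileup, and their median difference was 0.053 against -0.007 over all 12474 genes. Of all 30 genes in that list, 1 had a promoter peak in all 3 V16D/H19 and no V16D/CTL library, against 59 of 19675 genes. The 16 glutamate and GABA receptor genes also had no call, with a median of 0.177.

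Of the 44 lists, that of cell cycle genes had the largest share of falls. Of 40 replication and cell cycle genes 9 fell (22.5%) and none rose, against 1.66% of all genes that fell. PLK1, the kinase that drives entry into mitosis, had 157, 139 and 146 reads in V16D/CTL against 89.9, 106 and 115 in V16D/H19 (log2 difference -0.51, SE 0.085, adjusted p = 1.13e-04, limma). AURKB, the kinase of the chromosomal passenger complex, had 160, 158 and 144 against 99.1, 108 and 121 (-0.49, adjusted p = 9.62e-05, limma). The highest V16D/H19 library stayed below the lowest control at both. MKI67, which coats mitotic chromosomes and is read as the Ki-67 proliferation index, had 154, 163 and 163 against 121, 124 and 135 (-0.34). CDK1, the mitotic cyclin-dependent kinase, had 177, 158 and 144 against 122, 128 and 139 (-0.30), and its peak was also narrower, with 5033, 4878 and 4630 bases against 3842, 4029 and 3583. CCNB2, a mitotic cyclin, had 186, 156 and 171 against 155, 124 and 144 (-0.28). These falls are small, and the groups do not overlap in these 5 genes, which holds at 99.5% of all promoter sites called lower. CDC6 (-0.26), which licenses replication origins, and TOP2A (-0.25), which untangles sister chromatids, fell as well. The list's other calls were at alternative starts of CCND3 and CDKN2C. Not all mitotic genes of the list were called: AURKA, BUB1 and CCNB1 differed by 0.01, -0.11 and -0.20 and did not pass the test. E2F1 had 94.7, 113 and 132 reads against 121, 99.8 and 119 and a difference of 0.00, and CCND2 had 0.56 (adjusted p = 0.213, limma). Between 3 and 9 genes of the list fell when any library was left out, 9 with quantile or loess normalization, 3 without centring, 5 with chromosomes centred apart, and none when the variance model had no trend.

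**Figure D4:**
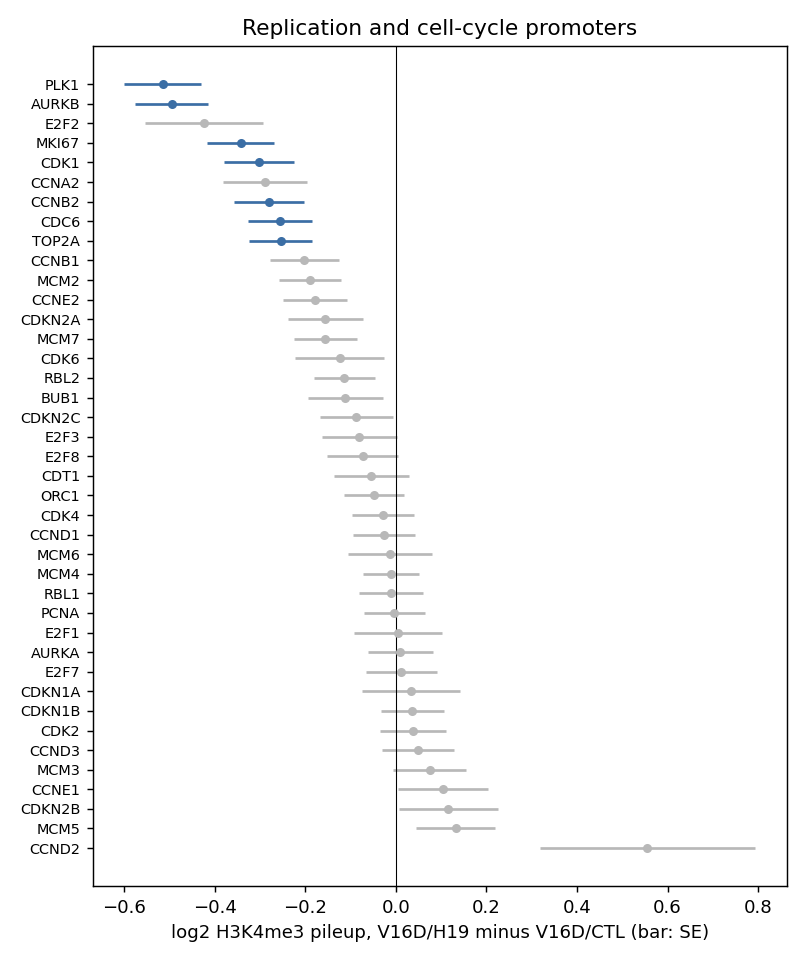
Difference in log2 pileup, V16D/H19 minus V16D/CTL, at the strongest promoter site of each of the 40 replication and cell cycle genes, with bars of 1 SE. The 7 blue points passed 0.05 and run from -0.51 at PLK1 to -0.25 at TOP2A; grey points did not pass.

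The next genes are outside the list and were picked after their values were seen, because they fell, so they give no share of cell cycle genes. PIF1, a DNA helicase, had 117, 127 and 109 reads against 68.5, 77.7 and 66.7 (-0.73, adjusted p = 4.46e-06, limma). CDC25B, the phosphatase that activates CDK1, fell by 0.48 (adjusted p = 0.00121, limma). ESPL1, the separase that cuts cohesin, fell by 0.38, CDC20, an activator of the anaphase-promoting complex, by 0.30, and BIRC5, which encodes survivin, by 0.24. The site shared by TK1, the thymidine kinase of S phase, and AFMID fell by 0.52, and which gene it belongs to cannot be told apart. Among 47 replication-dependent histone genes 4 fell and none rose, through 2 shared sites. The site of H2AC4 and H3C2 had 102, 79.7 and 103 reads against 60.3, 76.7 and 61.4 (-0.52), and the site of H3C1 and H4C1 had 103, 107 and 109 against 82.8, 87.3 and 70.8 (-0.41). The groups do not overlap at either. Of the 47 histone genes 39 had a negative difference, with a median of -0.123, against 6551 of all 12474 genes. Neighbouring histone genes can share a site, so these are fewer than 47 separate values.

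The TTTGAA printed for PLK1 and CCNB2 was more common among promoters that fell. Of the promoter sites tested, 9828 had a start in the sequence table, and 8.13% of them held TTTGAA on either strand. The share was 19.9% of 151 lower and 6.56% of 122 higher promoters. Among the 34 cell cycle windows it was found in 6, and in 5 of the 9 that fell; outside that list it was found in 17.6% of 142 windows that fell. Seen the other way, 3.75% of 799 promoters with TTTGAA fell against 1.34% of 9029 without it. CCAAT was found in 43.0% of lower, 30.3% of higher and 35.8% of all tested promoters. GGGCGG was found in 72.2%, 80.3% and 76.7% and TATAAA in 4.64%, 5.74% and 4.43%. The median G and C content was 64.3% in lower, 71.0% in higher and 67.7% in all tested promoters. TTTGAA was searched because of its place in mitotic promoters and after the falls were seen, so the shares are descriptive.

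Of 35 androgen receptor target genes 4 fell (11.4%) and none rose, against 1.66% and 1.29% of all genes. KLK2 was the one call among 9 luminal markers tested, whose summed pileup was 1070 to 1116 reads in V16D/CTL against 1108 to 1127 in V16D/H19, and 14 keratins and luminal or basal surface genes had no call in pileup, with a median of 0.008. KLK2, a kallikrein protease of luminal cells, had 40, 36.1 and 37.9 reads in V16D/CTL against 24.5, 19.2 and 18.7 in V16D/H19 (-0.88, SE 0.192, adjusted p = 0.00412, limma). SLC26A2, a sulfate transporter, fell by 0.33, and TSC22D3, a glucocorticoid-induced leucine zipper protein, had 105, 100 and 95.3 against 74.6, 76.7 and 81.2 (-0.37). Every control library lay above every V16D/H19 library at all 3. ZBTB10 on the long arm of chromosome 8 fell by 0.31 and did not pass when each chromosome was centred on its own (adjusted p = 0.208, limma). Of the list, 1 to 4 genes fell under the alternative settings, and 1 rose under 4 of them. The list's median was -0.053. Of 24 genes of the unfolded protein and amino acid response CHAC1 and SLC7A11 fell. CHAC1, which degrades glutathione, had 135, 138 and 133 reads against 101, 103 and 94.8 (-0.44, adjusted p = 6.89e-04, limma), and SLC7A11, the cystine importer, had 74.2, 73.2 and 74.7 against 47.0, 53.7 and 40.6 (-0.66). The control replicates are nearly equal at both genes. Among 22 NOTCH pathway genes the repressors HES7 (-0.42, at a site shared with ALOXE3) and HES1 (at a second site) fell and none rose. HOXA3 (-0.60) fell and HOXD13 (0.63) rose among 19 HOX genes, whose median was -0.291.

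Of 195 solute carriers 4 rose and 7 fell. SLC6A6, the taurine transporter, had 99.6, 91.7 and 99.6 reads against 58.3, 74.8 and 55.2 (-0.64), and SLC38A1, a glutamine transporter, had 138, 119 and 139 against 97.1, 106 and 104 (-0.36). SLC44A4, a transporter of epithelia, had 72.2, 77.8 and 76.9 against 119, 95.9 and 102 (0.47). None of the 3 overlapped between groups. Of 26 interferon response genes IRF1 (0.45) rose and OAS3 (-0.37) fell, and 22 had a negative difference. Of 445 zinc finger genes 6 fell (1.35%) and none rose. Housekeeping promoters did not pass the test: 78 ribosomal protein genes, 76 genes of oxidative phosphorylation and 45 of the proteasome had no call in pileup, with medians of 0.010, -0.005 and -0.031. No call in pileup was made among 29 PRC2 and PRC1 subunits or 23 enzymes that add or remove H3K4 and H3K27 methylation. The lists of lineage factors, keratins, epithelial-mesenchymal transition, WNT, hedgehog, SOX factors, integrins, clustered protocadherins, antigen presentation, hypoxia, cholesterol synthesis and imprinted genes had no call in pileup either, and some of their genes were called in width or gained or lost a peak.

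**Figure D5:**
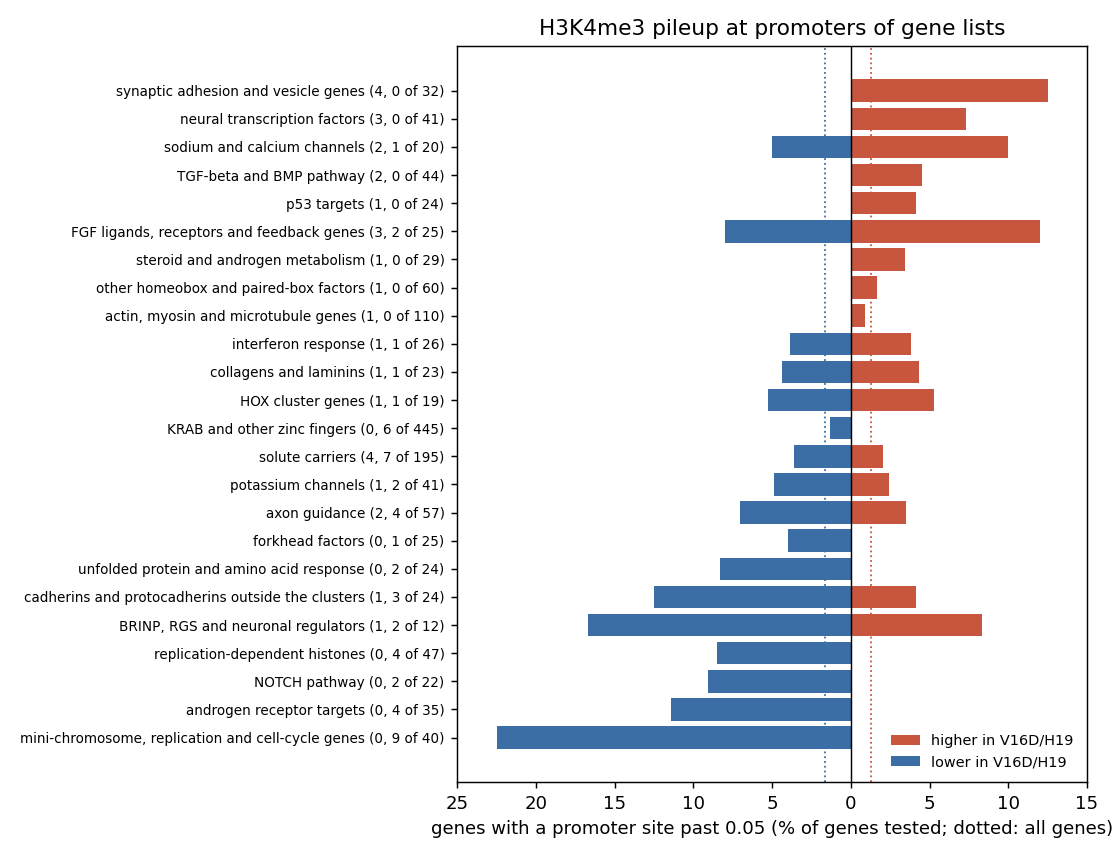
Share of tested genes (%) called higher (red, right) or lower (blue, left) in V16D/H19 for gene lists with at least 1 call that are reported here; brackets give the numbers higher and lower and the number tested. Dotted lines mark 1.29% higher and 1.66% lower over all genes; the cell cycle list reaches 22.5% on the lower side.

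Peaks called in every library of one group and none of the other were faint, with a median of 11.7 reads where gained and 11.9 where lost, and most lay away from promoters. A peak in all 3 V16D/H19 and no V16D/CTL library was found at 187 of 20708 sites (0.903%), and the reverse at 85 (0.410%). With the peak lists cut to equal length the counts were 150 and 109. Of the 187, 60 were promoter sites, at 59 genes, and 40 of them had H3K27me3 in at least 2 V16D/CTL libraries. Of the 85, 12 were promoter sites and 1 had H3K27me3. H3K27me3 was common at faint promoters in general. Among tested promoter sites below a mean of 40 reads, 534 had it in 2 or 3 V16D/CTL libraries, 75 in 1 and 638 in none. Another promoter site with a peak in all 6 libraries was found at 13 of the 60 and 7 of the 12. The 60 gained peaks held 5 to 26 reads with a median of 12, and a missing peak is not an absent mark. Leaving out 1 library loosens the rule, and 258 to 562 sites then gained a peak, the most without V16D/H19 replicate 3, and 120 to 214 lost one, the most without V16D/CTL replicate 2. By fold over input the strongest gains at promoters were at ASMTL, ZNF730, IL32, PIK3CD, SMOC1 and ACHE. IL32, a cytokine, had 18, 23 and 12 reads in V16D/H19, and SMOC1, a matrix protein that binds calcium, had 22, 16 and 15. SMOC1 and ACHE, the acetylcholinesterase, had H3K27me3 in V16D/CTL, and IL32 had none. In ASMTL, which had 2 other sites in all 6 libraries, V16D/H19 replicate 3 had 8 reads where the others had 24 and 26.

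Over all 19675 protein-coding genes 59 had a gained promoter peak (0.300%) and 12 a lost one (0.0610%). Gained peaks were found at 7 of 95 potassium channel genes, among them KCNA1 (9, 9 and 10 reads), KCNA6 (9, 13 and 9), KCNH5 (12, 11 and 11) and KCNN1 (14, 17 and 17). KCNK2, a leak channel, gained 2 neighbouring peaks of 12 to 18 and 9 to 14 reads. Gains were also found at the glutamate receptor subunits GRIN2B (9, 9 and 8 reads) and GRIN3B, the GABA receptor subunit GABRA2 and the voltage-gated channels SCN9A and CACNA1A. Of 64 synaptic genes 4 had a gained peak, and none of 72 axon guidance genes had one. CDH2, the neural cadherin, gained a peak of 15, 11 and 8 reads, and WNT6 one of 18, 24 and 6. No list gene of these families lost its peaks. The losses included SCARF2, a scavenger receptor, with 19, 26 and 21 reads in V16D/CTL, and UGT2B11, which conjugates steroids, with 10, 17 and 12. CCDC74B, ADCY4, GATA3 and SUZ12 complete the 6 strongest, and GATA3, an epithelial transcription factor, and SUZ12, a PRC2 subunit, kept other promoter peaks in all 6 libraries.

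The width of a site, the bases its peaks cover, was a further readout of the same peaks. It was wider in V16D/H19 at 33 sites (0.209%) and narrower at 23 (0.145%), and by genes 23 were wider (0.184%) and 21 narrower (0.168%). Of the 5 largest gains at promoters 4 had also risen in pileup. BEGAIN covered 295, 373 and 237 bases in V16D/CTL against 982, 1327 and 1174 in V16D/H19 (log2 difference 1.96, adjusted p = 0.00651, limma). CCDC85A covered 762, 458 and 450 against 1724, 1867 and 1837 (1.75), and CSMD2 241, 250 and 250 against 686, 773 and 762 (1.58). At these genes every V16D/H19 width exceeded every V16D/CTL width, which the choice of genes required. SPRY4 (1.48) and SLC40A1, the iron exporter (1.69), complete the 5 largest. SNORC covered 1086, 857 and 1337 bases against 216, 261 and 371 (-1.96), and PCDH20 narrowed by a log2 difference of -1.02. EPHA6, an ephrin receptor, covered 9791, 10153 and 10277 bases against 5567, 6129 and 5744 (-0.79, adjusted p = 7.72e-05, limma). Its summit differed by -0.10 (adjusted p = 0.569, limma), so a broad domain was shorter while its summit did not pass the test. DIRAS2 (-0.87) and PNMA1 (-0.73) were the other falls, and GATA2, an androgen receptor cofactor, narrowed from 7901, 7710 and 7132 to 6381, 6228 and 5899 bases (-0.30, adjusted p = 0.0371, limma). Wider sites numbered 8 without V16D/H19 replicate 1 or 2 and 21 without V16D/CTL replicate 2. Narrower sites numbered 7, 11 and 5 without V16D/CTL replicate 1, 2 or 3 and 13 and 10 without V16D/H19 replicate 1 or 2.

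Peak height, the deposited fold over input, gave 0 higher (0%) and 0 lower (0%) sites by limma, with 1041 sites at an unadjusted p under 0.05. Libraries agreed less in height than in pileup, at 0.862 to 0.879 within groups, since the local background divides each fold and correlated between libraries at 0.302 to 0.330 within groups. The largest height differences were 1.73 at PAICS, an enzyme of purine synthesis, and -1.86 at RND3 (adjusted p = 0.205 and 0.0858, limma). At CSMD2 (1.42), LIMK2 (1.35), PCDH20 (-1.36) and F5 (-1.24) pileup moved with height. At RNF220 (1.33) and NHEJ1 (1.31) pileup differed by -0.06 and -0.14 and local background by -1.98 and -1.95, and at ARMH4 (-1.24) pileup differed by -0.20 and background by 1.63. Of the 210 rises in pileup 189 had a positive height difference, and of the 336 falls 298 had a negative one. Over all 15811 sites 7583 had a positive and 8228 a negative height difference. Height is the same pileup divided by local background, so the shared direction follows in part from the calls and adds nothing to them.

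The deposited table of differential sites lists 1857 sites that were selected on these samples, so its directions are not independent evidence. Of 1346 listed sites at promoters, 216 had H3K27me3 in at least 2 V16D/CTL libraries, and 167 of these (77.3%) had the higher mean concentration in V16D/H19. Of 1095 without H3K27me3 in V16D/CTL, 135 (12.3%) did. The concentrations are the authors' means on a log2 scale and carry no error. For RND3 they were 8.62 in V16D/CTL against 5.85 in V16D/H19, for PCDH20 7.75 and 6.02, and for KLK2 8.05 and 6.73. For PLK1 they were 9.49 and 8.70, for EPHA6 11.29 and 10.59, for BEGAIN 4.0 and 5.78, and for SMOC1 1.49 and 4.61.

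Levels also differed in small steps between chromosomes. Of 25 chromosomes or parts of one, 10 had all 3 libraries of each group on one side (exact permutation test, two-sided, p = 0.1, the smallest that 3 against 3 allows; adjusted p = 0.250), namely 1, 2, 3, 11, 12, 15, 17, Y and both parts of 8. The difference in median log2 pileup was between -0.055 and 0.062 on the first 7 of these and 0.341 over 21 sites of Y, none of which was called. The 211 sites on the first 45 Mb of chromosome 8 were 0.170 higher in V16D/H19, with 14 sites higher and 3 lower, and the 357 sites on the rest of it were 0.109 lower, with 3 higher and 27 lower. Local background moved the same way on both parts of chromosome 8, by 0.154 and -0.126, and its part was not tested. With every chromosome centred on its own median, 148 sites were higher and 187 lower, and 313 of the 546 calls were shared. RND3, KLK2, PLK1, RIMS1 and CERK were among those still past 0.05.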

How the data were processed

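H3K4me3 was measured in 3 V16D/CTL and 3 V16D/H19 libraries, grouped by their titles. The authors ran MACS2 on each library with the input of its replicate, shared by both marks, as control. They called narrow peaks, on hg38 per the submitters' processing notes, and versions are not given in the sources used here. For every peak the deposited lists hold the enrichment over input as a linear fold, and −log10 p. The authors also deposited a DiffBind table annotated with ChIPseeker, of which only the group mean log2 concentrations were used; its columns of differences, p-values and FDR were not. Read depth was not used here, and pileups cover 65.5 to 89 reads at the median peak.

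Pileup, the reads at a summit, was recovered from each fold and p-value, for 100% of peaks within 0.001 of the log10 p. Peaks sharing 1 base were merged. Sites with a peak in all 6 libraries were centred on the library median and compared with limma 3.58.1 (trend, robust, two-sided, Benjamini-Hochberg at 0.05, R 4.3.3). The planned readout was the fold over input, which called no site in either direction. Pileup was added after the data were seen. Width was tested likewise, and peak calls were counted without a test. The code was tested on simulated data. Promoters were sites within 1 kb of a start of 19675 protein-coding genes: 15843 genes from the RefSeq promoter table and 3832 by their RefSeq end, with strand from GENCODE by symbol.

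The genes, the 44 gene lists and the markers were chosen with earlier results of these data known. Named genes are the 10 largest rises and falls in pileup whose groups do not overlap (planned for height), the 5 in width, the 6 strongest gained and lost promoters, the largest height differences, and called members of the lists; other names are said to be chosen after their values were seen. Replicate numbers did not pair the libraries. Alternatives were other normalizations, filters, overlaps, thresholds and variance models, a replicate block, and leaving out each library. Results of 1 gene list are not reported here.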

Additional observations from a re-analysis of the deposited data

How the results depend on the processing

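Pileup, width and peak calls were recomputed under each alternative. Sites higher in pileup numbered 340 with quantile and 324 with loess normalization, 86 without centring, 100 without trend and robust fitting, and 81 to 207 when any library was left out. Sites lower in pileup numbered 162 without centring, 114 without trend and robust fitting, 187 with each chromosome centred apart, and 140 to 245 when any library was left out. Wider sites numbered 61 with a peak in at least 2 libraries, 3 without trend and robust fitting, and 8 to 23 with a library left out; narrower sites numbered 35, 3 and 5 to 29. Height gave 1 lower site without trend and robust fitting and 1 with a mean weighted by width, and none otherwise. Peak calls gained numbered 258 to 562 and lost 120 to 214 with a library left out. The cause of these shifts was not tested, apart from fewer libraries where one was left out. With the replicate number as a block, pileup gave 237 higher and 361 lower sites, width 20 wider and 17 narrower, and height 0. Same-numbered libraries deviated together little (residual correlations of -0.0482, 0.0116 and -0.0205 in pileup), so the numbers did not pair the libraries. For the 20 genes with the largest rises and falls in pileup, 242 of 260 alternative values stayed past 0.05, 18 at 9 genes did not, and none changed direction. Peak lists are limited by depth, which was not used here.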

Other observations

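Sites away from protein-coding starts changed as well. Of the 210 sites with a higher pileup 54 had no protein-coding start within 1 kb, and 7 of these lay at the start of a non-coding RNA. Of the 336 lower sites 143 had none, and 15 lay at a non-coding start. LINC00900 had 36.1, 30.6 and 31.4 reads in V16D/CTL against 58.3, 59.5 and 45.8 in V16D/H19 (log2 difference 0.73, adjusted p = 0.00448, limma) and carried H3K27me3 in all 3 V16D/CTL libraries. LINC03117 had 32.2, 39.8 and 48.7 reads against 20.4, 15.3 and 18.7 (-1.14, adjusted p = 2.95e-04, limma) and had no H3K27me3. MIR99AHG, the host of a microRNA cluster, fell by 0.66 and was narrower too. HAR1A and HAR1B, non-coding RNAs that overlap on opposite strands, share a site that fell by 0.65, and which of them it belongs to cannot be told apart.

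Adhesion and matrix lists had calls in both directions. Among 24 cadherins and protocadherins outside the clusters CDH7 (0.49) rose, and CDH26 (-0.41), PCDH20 and PCDH7 (-0.57) fell. PCDH7 had 60.5, 60.2 and 71.5 reads against 46.0, 40.3 and 42.7, so the groups did not overlap, and its peak was narrower as well. Among 23 collagens and laminins COL18A1 (0.44) rose and LAMB2 (-0.26) fell. TUBA1A, an alpha-tubulin of neurons, rose by 0.47 as the one call among 110 actin, myosin and microtubule genes. RGS7 (0.50) rose, and RGS2 (-0.49) and RGS3 (-0.26), regulators of G-protein signalling like it, fell among 12 genes of the neuronal regulator list. Another promoter site of RGS3 was wider in V16D/H19 (log2 difference 1.22), and its pileup differed by 0.63 (adjusted p = 0.0646, limma). SULT2B1, a steroid sulfotransferase, had 17.6, 13.9 and 20.6 reads against 28.6, 36.4 and 30.2 (0.88), the one call among 29 genes of steroid and androgen metabolism. FOXP1 fell by 0.45 at an alternative start, the one call among 25 forkhead genes.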
